A study of Mus musculus with 9 samples.

Results

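Ptgfrn, Igsf8 and 5 tetraspanins (Cd9, Cd81, Cd151, Cd82 and Cd63) were followed across 9 RNA-seq libraries of mouse podocytes in which Usp40, a gene for a deubiquitinating enzyme, had been silenced. The 7 genes were picked by name, 7 of the 25655 genes in the deposited count table, because of their levels in control cells and their changes with each siRNA in these same data. Their levels and changes are therefore given as descriptions with standard errors and without a test. Genes of other lists, drawn up by function or family with earlier results of these data known, carry adjusted p-values from a fit over all genes tested. All 7 genes passed the low-count filter that kept 11800 genes for testing.

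The cells were wild-type immortalized mouse podocytes, a kidney cell line grown under permissive conditions with interferon-γ and then differentiated at a higher temperature without it. One group received USP40 siRNA#1 (s105625, siRNA 1 here), a second received USP40 siRNA#2 (s105626, siRNA 2) and the control group received a commercial non-targeting siRNA, Silencer Select Negative Control No.1. RNA was isolated 48 h after transfection, and each group had 3 libraries, all labelled as 1 batch. The labels call the libraries biological replicates without saying that each came from its own culture, so a p-value here reflects only how much these libraries varied, which may be technical variation.

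Ptgfrn and Igsf8 encode the single-pass immunoglobulin proteins EWI-F (CD9P-1) and EWI-2, named for a Glu-Trp-Ile motif in their extracellular part. They bind laterally and with high stoichiometry to the tetraspanins CD9 and CD81, small proteins that cross the membrane several times and gather integrins, proteases and receptors into membrane microdomains, and both bind ezrin-radixin-moesin proteins, which link membrane proteins to actin. In the kidney, CD151 and its partner integrin α3β1 anchor the podocyte foot process to the glomerular basement membrane, and CD63, CD9 and CD81 are widely used markers of extracellular vesicles.

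Coding sequences that the 2 EWI genes and the 5 tetraspanins share within their own group are shown first. For the EWI genes this is the motif that names the family, and for the tetraspanins a motif of the large extracellular loop. Each was read from the GRCm39 genome along the GENCODE M39 canonical transcript, 5′ to 3′ on the coding strand. For Ptgfrn and Igsf8 the capitals mark the in-frame codons for Glu-Trp-Ile (GAA or GAG, TGG, then ATT, ATC or ATA), with the neighbouring codons in lower case. Ptgfrn spans chr3:100984402-100984470 (minus strand, exon 3 of 9, motif at codon 251 of 879) and Igsf8 spans chr1:172145269-172145337 (plus strand, exon 3 of 7, motif at codon 272 of 611).
Ptgfrn: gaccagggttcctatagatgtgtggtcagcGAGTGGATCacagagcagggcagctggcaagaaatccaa
Igsf8: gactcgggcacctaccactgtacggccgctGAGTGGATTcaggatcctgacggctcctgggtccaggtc
Aligned at the motif, the 2 windows were identical at 33 of 69 bases. Searched on the coding strand only and in frame, Glu-Trp-Ile codons occurred in 401 of 21548 canonical coding transcripts (1.86%) and in 0 of the 26 tetraspanins outside the 5. The 2 other genes of the EWI family, Igsf3 and Cd101, each held 1 such match.

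For the tetraspanins the capitals mark the Cys-Cys-Gly codons (TGC or TGT at each cysteine, then GGN) of the large extracellular loop, whose cysteines form the disulfide bonds that define the family. The windows were chr6:125439122-125439166 (Cd9, minus strand, exon 6 of 8, codon 150 of 226), chr7:142620398-142620442 (Cd81, plus strand, exon 6 of 8, codon 156 of 236), chr7:141050223-141050267 (Cd151, plus strand, exon 7 of 8, codon 155 of 253), chr2:93251056-93251100 (Cd82, minus strand, exon 8 of 10, codon 149 of 266) and chr10:128748030-128748074 (Cd63, plus strand, exon 6 of 8, codon 145 of 238).
Cd9: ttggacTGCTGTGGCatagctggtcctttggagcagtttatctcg
Cd81: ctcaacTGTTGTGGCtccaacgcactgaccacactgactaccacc
Cd151: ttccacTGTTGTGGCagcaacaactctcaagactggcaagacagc
Cd82: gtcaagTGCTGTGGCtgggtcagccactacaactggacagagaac
Cd63: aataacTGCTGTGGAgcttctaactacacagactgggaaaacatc
Aligned at the motif, Cd151 was identical to Cd82 and to Cd63 at 26 of 45 bases each, the most of the 10 pairs, and Cd9 was identical to Cd82 and to Cd63 at 17, the fewest. In-frame Cys-Cys-Gly codons were found in 559 of 21548 canonical coding transcripts (2.59%), in all 5 of these tetraspanins and in 26 of 26 others. Cd9, Cd81 and Cd63 each held 2 matches, of which the one in the large loop is shown.

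The libraries held 9786270 to 13675426 counts over genes. Usp40, the targeted gene, had 173, 174 and 196 counts with siRNA 1, 190, 222 and 295 with siRNA 2 and 371, 365 and 503 with control siRNA. In edgeR's quasi-likelihood test with Benjamini-Hochberg adjustment, its log2 fold change was -1.18 (SE 0.115, adjusted p = 0.000727) with siRNA 1 and -0.88 (SE 0.112, adjusted p = 0.00047) with siRNA 2. Of 12 podocyte markers, Ptpro and Tcf21 had no count in any library and the slit diaphragm gene Nphs1 had 2 counts over all 9 libraries, whereas Podxl had 4066 and Synpo 11953. The slit diaphragm transcript of Nphs1 was thus nearly absent from cells labelled as podocytes. Summed TPM over the podocyte markers was 609.98 to 746 with siRNA 1, 638 to 708 with siRNA 2 and 528 to 671 with control siRNA. The groups overlapped. Mesangial markers summed to 54.5 to 71.9 TPM with siRNA 1, 57.6 to 59.4 TPM with siRNA 2 and 48.1 to 61.3 TPM with control siRNA, also overlapping. In bulk RNA, fewer cells of a type and less RNA per cell cannot be told apart.

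The 7 genes spanned a wide range of levels in control cells. Levels are compared between genes as the authors' TPM, which is per length, with mean ± SD over the 3 control libraries. Cd63, a lysosomal and vesicle tetraspanin, stood highest at 1184 ± 129 TPM, rank 102 of all genes. Cd81 followed at 551 ± 50.8 TPM, Cd9 at 319 ± 38.7 TPM and Cd151 at 228 ± 12.2 TPM. Below these 4 came Ptgfrn at 89.6 ± 19.4 TPM, Cd82 at 75.9 ± 4.04 TPM and Igsf8 at 28.9 ± 3.86 TPM. Only Ptgfrn (67.8 to 105 TPM) and Cd82 (71.4 to 79.2 TPM) overlapped among neighbours in this order. The order by mean was the same in the authors' RPKM.

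With siRNA 1 the order changed at one place. Cd82 ranged from 75.6 to 86.9 TPM and Ptgfrn from 45.5 to 54.4 TPM there, so Ptgfrn lay below Cd82 in every library. With siRNA 2 their ranges were 85.0 to 95.8 TPM for Cd82 and 87.9 to 103 TPM for Ptgfrn and overlapped, as in control cells.

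**Figure D1:**
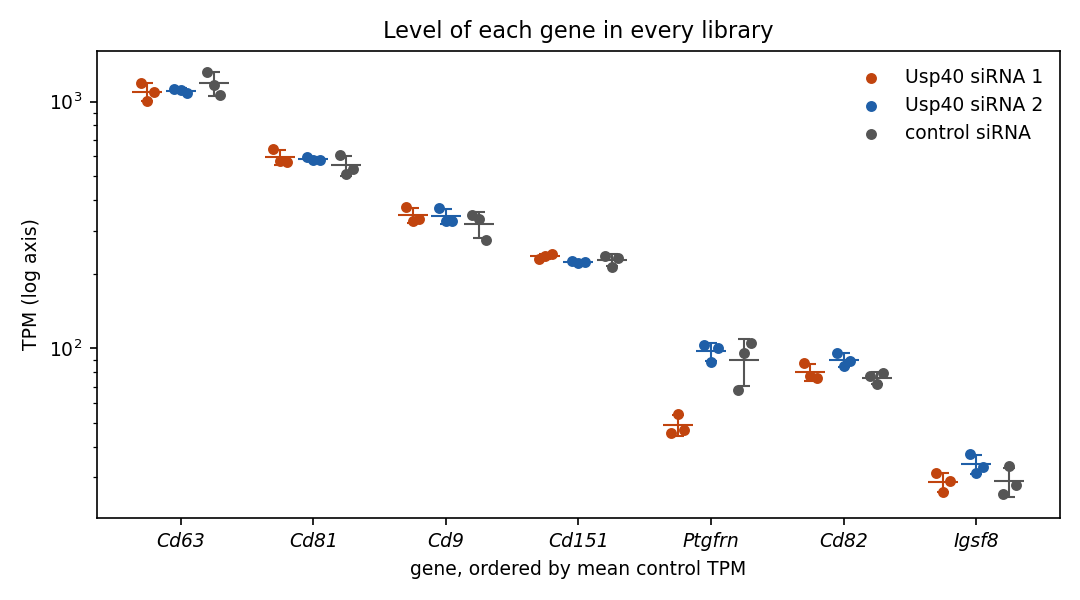
Level (TPM, log axis) of each of the 7 genes in every library, with siRNA 1 at the left, siRNA 2 next and control siRNA at the right of each gene. Points are libraries, long bars the means and whiskers the SD; the siRNA 1 points of Ptgfrn lie below all its siRNA 2 and control points, and for Igsf8 the siRNA 1 and siRNA 2 points each overlap the control points (25.7 to 33.2 TPM).

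Of 31 tetraspanin genes, 22 averaged at least 1 TPM in control cells and 4 (Prph2, Tspan10, Cd53 and Upk1b) had no count in any library. The 5 tetraspanins described here held 74.0% of the summed control TPM of the family, with Cd63 alone at 37.2%. Tspan3, the one tetraspanin outside the 5 that stood among the first 5 of the family, averaged 254 TPM. Ptgfrn stood between Tspan31 and Cd82 of the tetraspanins, and Igsf8 was the lower of the 2 EWI genes in all 9 libraries.

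Ptgfrn stood lower with siRNA 1 than with siRNA 2 or control siRNA. It lies on chromosome 3 from 100947548 to 101017594 on the minus strand (GRCm39; ENSMUSG00000027864). In CPM, counts scaled to a common library size with TMM factors, its 3 siRNA 1 libraries had 116, 129 and 118 CPM, its siRNA 2 libraries 237, 208 and 229 CPM and its control libraries 181, 229 and 257 CPM. Every siRNA 1 library lay below every library of the other 2 groups, and the siRNA 2 range lay inside the control range.

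The level of Ptgfrn averaged 120.9 ± 7.35 CPM with siRNA 1, 224.7 ± 15.1 CPM with siRNA 2 and 222.1 ± 38.6 CPM with control siRNA (SD, n = 3 each). Against control, the difference was -0.88 on the log2 scale with siRNA 1 (SE 0.113, 95% interval -1.15 to -0.60), which is 54.4% of the control level. With siRNA 2 it was 0.02 (SE 0.111, 95% interval -0.26 to 0.29). Between the siRNAs it was -0.89 (SE 0.113). Ordered by log2 fold change, Ptgfrn was the 28th lowest of 11800 genes with siRNA 1 and stood at place 6311 with siRNA 2. Usp40 itself stood at 44.2% of control with siRNA 1 and 54.2% with siRNA 2, and its log2 difference between the siRNAs was -0.29 (SE 0.121, adjusted p = 0.185, edgeR).

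Of the 7 genes, 1 (Ptgfrn, lower) was among the genes called at an adjusted p under 0.05 with siRNA 1, where 1.65% of all genes tested were called, 1.03% lower and 0.627% higher. With siRNA 2, 0 of 7 were called in edgeR (0 at an unadjusted p under 0.05), where 16.2% of all genes were called, 8.4% lower and 7.81% higher. Between the siRNAs 1 of 7 was called (Ptgfrn, lower with siRNA 1), where 6.74% of all genes were called, 2.49% lower and 4.25% higher. The median log2 fold change of the 7 was 0.04 with siRNA 1, -0.01 with siRNA 2 and 0.09 between the siRNAs, beside 0.01, -0.01 and 0.00 over all genes tested. Since these contrasts chose the 7 genes, the counts describe them only.

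Igsf8, the close relative of Ptgfrn, lay near its control level in both groups. It is on chromosome 1 from 172089208 to 172147408 on the plus strand. Its libraries had 43.7, 34.3 and 40.4 CPM with siRNA 1, 47.3, 40.8 and 41.7 CPM with siRNA 2 and 37.8, 43.7 and 37.5 CPM with control siRNA. In CPM all 3 groups overlapped; in TPM the siRNA 2 libraries (31.3 to 37.4) lay just above the siRNA 1 libraries (26.2 to 31.2) and both overlapped control. The log2 fold change was -0.00 (SE 0.104, 95% interval -0.26 to 0.25) with siRNA 1 and 0.12 (SE 0.103, 95% interval -0.13 to 0.38) with siRNA 2. The ratio of Ptgfrn to Igsf8 in TPM was 1.71 ± 0.325 with siRNA 1, 2.86 ± 0.14 with siRNA 2 and 3.10 ± 0.596 with control siRNA (SD, n = 3 each).

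Cd9 and Cd81 encode the direct partners of both EWI proteins. Cd9 (chromosome 6, 125437229 to 125471754, minus strand) had 198, 162 and 177 CPM with siRNA 1, 178, 162 and 156 CPM with siRNA 2 and 193, 166 and 139.96 CPM with control siRNA. Cd81 (chromosome 7, 142606476 to 142621671, plus strand) had 465, 389 and 411 CPM with siRNA 1, 390.4, 390.5 and 379 CPM with siRNA 2 and 462, 347 and 373 CPM with control siRNA. For both genes the 3 groups overlapped, and the first control library was the highest of the control libraries. The log2 fold change of Cd9 was 0.11 (SE 0.111, 95% interval -0.17 to 0.38) with siRNA 1 and -0.01 (SE 0.111, 95% interval -0.28 to 0.26) with siRNA 2. That of Cd81 was 0.10 (SE 0.103, 95% interval -0.15 to 0.35) with siRNA 1 and -0.03 (SE 0.103, 95% interval -0.28 to 0.22) with siRNA 2.

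Per length, Ptgfrn amounted to 5.22 ± 0.78 TPM for every 100 TPM of Cd9 and Cd81 together with siRNA 1, 10.4 ± 0.694 with siRNA 2 and 10.5 ± 3.04 with control siRNA (SD, n = 3 each). The 3 siRNA 1 libraries (4.48, 6.03 and 5.14) lay below all 3 siRNA 2 libraries (10.7, 9.67 and 11.0) and all 3 control libraries (7.09, 11.3 and 13.0). The control libraries were the most widely spread of the 3 groups in this ratio.

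Cd151, the tetraspanin that pairs with laminin-binding integrins, lies on chromosome 7 from 141047305 to 141051386 on the plus strand. It had 206, 198 and 215 CPM with siRNA 1, 183, 186 and 180.3 CPM with siRNA 2 and 223, 180.4 and 200.3 CPM with control siRNA. Each siRNA group overlapped the control group, but the 2 siRNA groups did not overlap each other. The share of all genes that separate in this way was not counted. The log2 fold change was 0.04 (SE 0.0791) with siRNA 1 and -0.14 (SE 0.0792) with siRNA 2. The difference between the siRNAs was 0.17 (SE 0.0792, 95% interval -0.02 to 0.37), an interval that includes 0.

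Cd82, which restrains cell motility in several cell types and lies on chromosome 2 (93249456 to 93293485, minus strand), averaged 88.3 ± 8.75 CPM with siRNA 1, 92.3 ± 4.68 CPM with siRNA 2 and 84.4 ± 7.98 CPM with control siRNA (SD, n = 3 each). Its log2 fold change was 0.06 (SE 0.0915) with siRNA 1 and 0.13 (SE 0.0912) with siRNA 2. Cd63 (chromosome 10, 128736858 to 128748691, plus strand) averaged 753 ± 87.5 CPM with siRNA 1, 706 ± 24.2 CPM with siRNA 2 and 819 ± 133 CPM with control siRNA, with log2 fold changes of -0.12 (SE 0.113) with siRNA 1 and -0.21 (SE 0.113) with siRNA 2. In CPM both genes overlapped between each siRNA group and control. In TPM the siRNA 2 libraries of Cd82 (85.0 to 95.8) lay above its control libraries (71.4 to 79.2). Cd82 with siRNA 1 and Cd63 with either siRNA overlapped control in TPM too. The share of all genes that separate from control in TPM was not counted.

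The 5 tetraspanins summed to 2354 ± 153 TPM with siRNA 1, 2350 ± 58.4 TPM with siRNA 2 and 2358 ± 209 TPM with control siRNA (SD, n = 3 each), so the sum differed between groups by less than the spread within a group. Cd63 made up 46.6% ± 1.10 of it with siRNA 1, 47.1% ± 0.67 with siRNA 2 and 50.2% ± 1.31 with control siRNA. The highest siRNA library stood at 47.8% and the lowest control library at 48.6%. How often other genes or shares separate in this way was not counted.

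**Figure D2:**
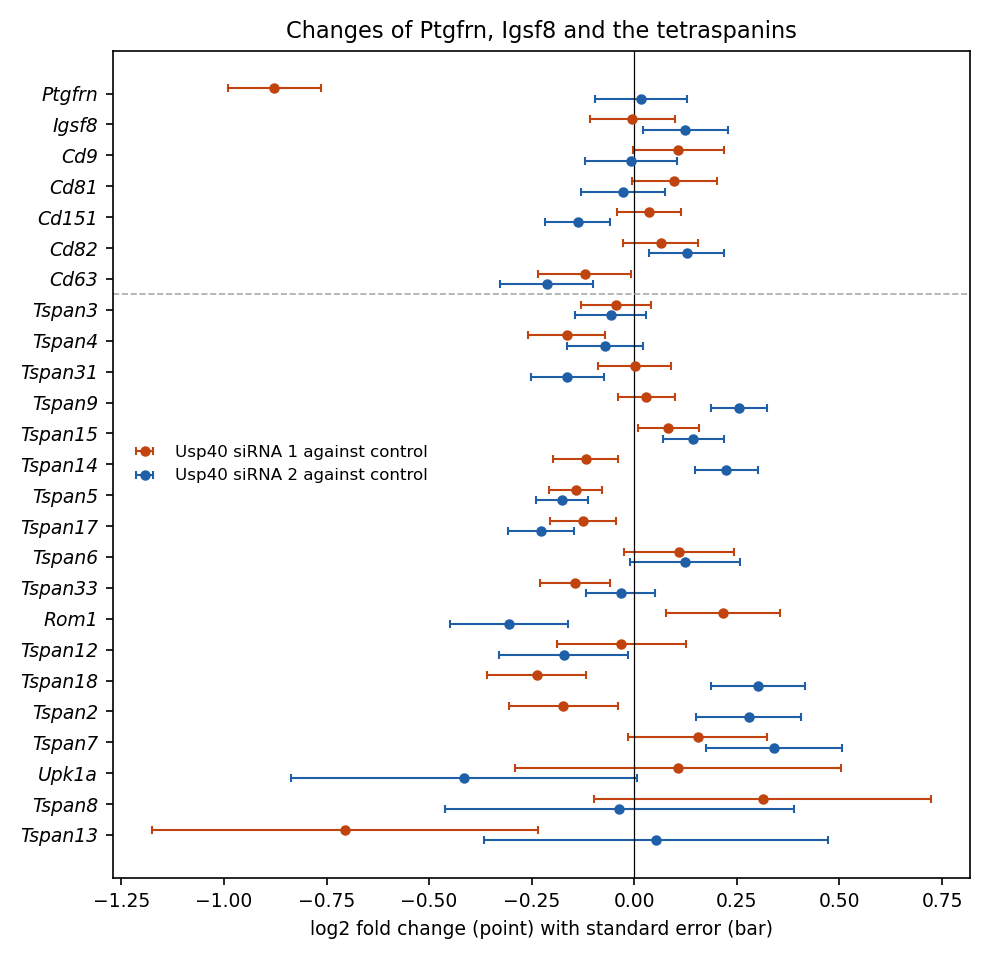
Log2 fold change (x axis, point) with its standard error (bar) of the 7 genes, above the dashed line, and of the 18 other tetraspanins tested, below it; each siRNA is set against control siRNA. Ptgfrn with siRNA 1 stands at -0.88, while the other 6 genes above the line lie between -0.21 and 0.13 with either siRNA.

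The other tetraspanins were tested as a list. Of 26, 18 passed the filter. With siRNA 1, 0 of 18 were called in edgeR (0 higher and 1 lower at an unadjusted p under 0.05, where 808 and 800 of all genes were higher and lower). With siRNA 2, 1 of 18 was called (5.56%), where 16.2% of all genes were. This was Tspan9, called higher (log2 fold change 0.26, SE 0.0686, adjusted p = 0.0282, edgeR), at 158 ± 0.897 CPM with siRNA 1, 185 ± 14.3 CPM with siRNA 2 and 155 ± 4.75 CPM with control siRNA. The call was lost when any of 5 single libraries was left out (siRNA 1 replicate 3, siRNA 2 replicates 1 and 3, control replicates 1 and 2; adjusted p 0.0504 to 0.118) and with only the 6 libraries compared (0.0514). The median log2 fold change of the list was -0.04 with siRNA 1 and -0.03 with siRNA 2, beside 0.01 and -0.01 over all genes.

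The genes lie in part next to relatives. Cd101, the EWI gene nearest Ptgfrn, starts 10.7 kb from it and did not pass the filter, and Igsf3 lies 267 kb away. Tspan18 lies 84.6 kb from Cd82, Tspan32 33.1 kb from Cd81 and Tspan4 3.77 kb from Cd151. Igsf3, whose protein carries the same motif as Ptgfrn, was called higher with siRNA 2 (log2 fold change 0.57, SE 0.105, adjusted p = 0.00487, edgeR), a call that held with each of the 9 libraries left out in turn. It averaged 40.9 ± 3.07 CPM with siRNA 1, 52.9 ± 3.82 CPM with siRNA 2 and 35.6 ± 4.98 CPM with control siRNA (SD, n = 3 each). With siRNA 1 its log2 fold change was 0.20 (SE 0.107, adjusted p = 0.45), and the difference between the siRNAs was -0.37 (adjusted p = 0.0576). Of the 8 tested genes nearest to Ptgfrn, 4 on each side and picked by position after the data were seen, 0 were called with siRNA 1 in edgeR (2 higher and 1 lower at an unadjusted p under 0.05). The nearest, Ttf2, 70.6 kb away, had a log2 fold change of -0.03 with siRNA 1 and -0.09 with siRNA 2.

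Lateral partners of the tetraspanins came next: integrins, metalloproteinases, growth factor receptors and adhesion molecules. Of 26 listed, 20 were tested, with 2 called higher and 1 lower with siRNA 1 (1.65% of all genes called) and 3 higher and 1 lower with siRNA 2 (16.2%). The median log2 fold change was 0.01 with siRNA 1 and 0.07 with siRNA 2. Itgb1, the β1 subunit shared by the CD151-binding integrins, fell with siRNA 1 by 0.36 on the log2 scale (SE 0.0617, adjusted p = 0.015, edgeR). Its libraries had 968, 943 and 932 CPM with siRNA 1, 1246.4, 1237 and 1257 CPM with siRNA 2 and 1199, 1241 and 1196.5 CPM with control siRNA, so that the siRNA 1 libraries lay below all others. The call was lost without siRNA 1 replicate 2, siRNA 1 replicate 3 or control replicate 2 (adjusted p 0.0534 to 0.101), and with only the 6 libraries compared (0.109). Itga3, the α3 subunit that pairs with CD151 in podocytes, was not called, with log2 fold changes of 0.02 (SE 0.107, adjusted p = 0.949) with siRNA 1 and 0.07 (SE 0.107, adjusted p = 0.669) with siRNA 2; it was named for its role after its values were seen.

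Egfr, a growth factor receptor, was called higher with siRNA 1 (log2 fold change 0.58, adjusted p = 0.0427), as was Cd44, a hyaluronan receptor (0.36, adjusted p = 0.0383). Each of these 2 calls held in only 1 of the 9 fits that left out a library, without control replicate 3 for Egfr and without control replicate 1 for Cd44. The other 8 fits gave adjusted p-values of 0.0517 to 0.19 for Egfr and 0.0788 to 0.168 for Cd44. With only the 6 libraries compared, both calls ended (adjusted p 0.14 for Egfr and 0.176 for Cd44), and that of Cd44 also with the length trend removed (0.0739).

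With siRNA 2, Itgav, the α subunit of vitronectin-binding integrins, was called lower. It had 195, 193 and 174 CPM with siRNA 1, 111, 83.2 and 94.3 CPM with siRNA 2 and 181, 192 and 176 CPM with control siRNA. The siRNA 2 libraries lay below all others, with a log2 fold change of -0.93 (SE 0.0977, adjusted p = 0.000148, edgeR), and the call held in all 9 leave-one-out fits. Itga6, the α6 subunit of laminin-binding integrins, was called higher (0.67, adjusted p = 0.0168), lost without siRNA 2 replicate 1 or 3 or control replicate 2 (adjusted p 0.052 to 0.0746). Mmp14, a membrane-bound metalloproteinase (0.38, adjusted p = 0.0419), and Cldn1, a tight junction protein that binds CD81 (0.31, adjusted p = 0.024), were also called higher. These calls were lost in 6 of 9 leave-one-out fits for Mmp14 (adjusted p 0.0605 to 0.116) and in 5 of 9 for Cldn1 (0.0528 to 0.096). Mmp14 also lost its call with only the 6 libraries compared (0.059).

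Transcripts of the ezrin-radixin-moesin proteins, which tie EWI proteins to actin, were counted next, together with 2 NHERF adaptors and Podxl. Of 6 genes (ezrin, radixin, moesin, 2 NHERF adaptors and Podxl), 0 were called with siRNA 1 in edgeR (0 at an unadjusted p under 0.05) and 2, Ezr and Msn, were called lower with siRNA 2, where 8.4% of all genes were called lower. The other 4 were not called with either siRNA. Ezr had 654, 638 and 632 CPM with siRNA 1, 530.2, 459 and 454 CPM with siRNA 2 and 658, 691 and 726 CPM with control siRNA. Its log2 fold change was -0.52 with siRNA 2 (SE 0.0765, adjusted p = 0.00123, edgeR) and the siRNA 2 libraries lay below all others. Msn averaged 530.3 ± 25.1 CPM with siRNA 1, 408 ± 16.4 CPM with siRNA 2 and 526 ± 33.4 CPM with control siRNA, a log2 fold change of -0.37 with siRNA 2 (adjusted p = 0.00701). Both calls against control held in all 9 leave-one-out fits.

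**Figure D3:**
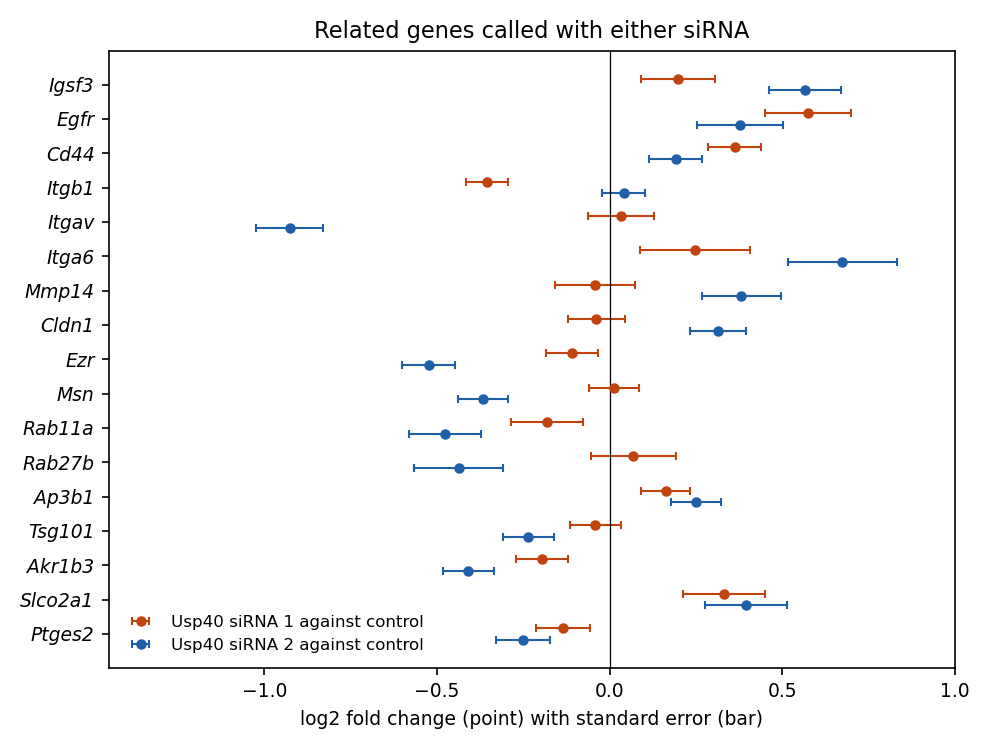
Log2 fold change (x axis, point) with its standard error (bar) of listed genes called with either siRNA against control siRNA, outside the 7 genes. Itgav with siRNA 2 stands at -0.93 and Igsf3 with siRNA 2 at 0.57; no vesicle or prostaglandin gene was called with siRNA 1.

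Genes of vesicle formation and release, in which CD63, CD9 and CD81 are cargo, gave 23 tested genes of 24. With siRNA 1, 0 were called in edgeR (2 higher and 0 lower at an unadjusted p under 0.05). With siRNA 2, 4 of 23 were called (17.4%), a share near the 16.2% of all genes. Ap3b1, a subunit of the AP-3 adaptor that sorts CD63 to lysosomes, was called higher (log2 fold change 0.25, adjusted p = 0.0354). Rab11a, a recycling GTPase (-0.48, adjusted p = 0.0119), Rab27b, a secretion GTPase (-0.44, adjusted p = 0.0386), and Tsg101, an ESCRT-I subunit (-0.24, adjusted p = 0.0497), were called lower. Their calls ended without single libraries in 6, 2, 6 and 7 of 9 fits, in the order Ap3b1, Rab11a, Rab27b and Tsg101, with adjusted p-values of 0.0565 to 0.132, 0.0553 to 0.0573, 0.0605 to 0.116 and 0.0538 to 0.158. With only the 6 libraries compared, Ap3b1 also lost its call (adjusted p 0.0575), and Tsg101 lost its call under that and 5 other settings (0.0503 to 0.102).

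Ptgfrn is named as a negative regulator of the prostaglandin F receptor, so prostaglandin genes were counted as well. Of 21, 10 were tested, and 0 were called with siRNA 1 in edgeR (4 higher and 1 lower at an unadjusted p under 0.05), where 1.65% of all genes were called. With siRNA 2, 3 of 10 were called, where 16.2% of all genes were. Akr1b3, an aldo-keto reductase with prostaglandin F synthase activity, was called lower (log2 fold change -0.41, SE 0.075, adjusted p = 0.00456), a call kept in all 9 leave-one-out fits. Slco2a1, a prostaglandin transporter, was called higher (0.39, adjusted p = 0.0431), and Ptges2, a prostaglandin E synthase, lower (-0.25, adjusted p = 0.0468). These calls ended in 7 of 9 fits for Slco2a1 (adjusted p 0.0503 to 0.179) and 8 of 9 for Ptges2 (0.0504 to 0.166). They also ended with no low-count filter, in DESeq2 and with only the 6 libraries compared (adjusted p 0.0519 to 0.0676 for Slco2a1, 0.0622 to 0.103 for Ptges2), and that of Slco2a1 with the length trend removed (0.159).

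Genes whose pattern was most like that of Ptgfrn were found by Pearson correlation of log2 CPM over the 9 libraries, among 9506 genes averaging at least 10 CPM. They are a description, with no test, since the libraries share 3 groups. Gucd1 came first (r = 0.98, rho = 0.98), then Cyth3, an ARF exchange factor (0.97, 0.95), Ttll12 (0.97, 0.85), Ptprj, a receptor tyrosine phosphatase (0.97, 0.90), and Clic4, a chloride intracellular channel protein (0.97, 0.93). Their log2 fold changes with siRNA 1 were -0.43, -0.64, -0.32, -0.19 and -0.36 in that order, each smaller than that of Ptgfrn. With siRNA 2 they were 0.03, -0.01, 0.04, -0.01 and 0.14. At the other end stood Id2, an inhibitor of helix-loop-helix factors (-0.97), Zwint (-0.96) and Cat, catalase (-0.95). By Spearman's rho, Ttll12 stood at place 77 of the 9506. No other member of the 7 was near either end: r with Ptgfrn was 0.26 for Igsf8, -0.57 for Cd9, -0.61 for Cd81, -0.61 for Cd151, -0.08 for Cd82 and -0.22 for Cd63, while Cd9 and Cd81 had r = 0.79 with each other.

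**Figure D4:**
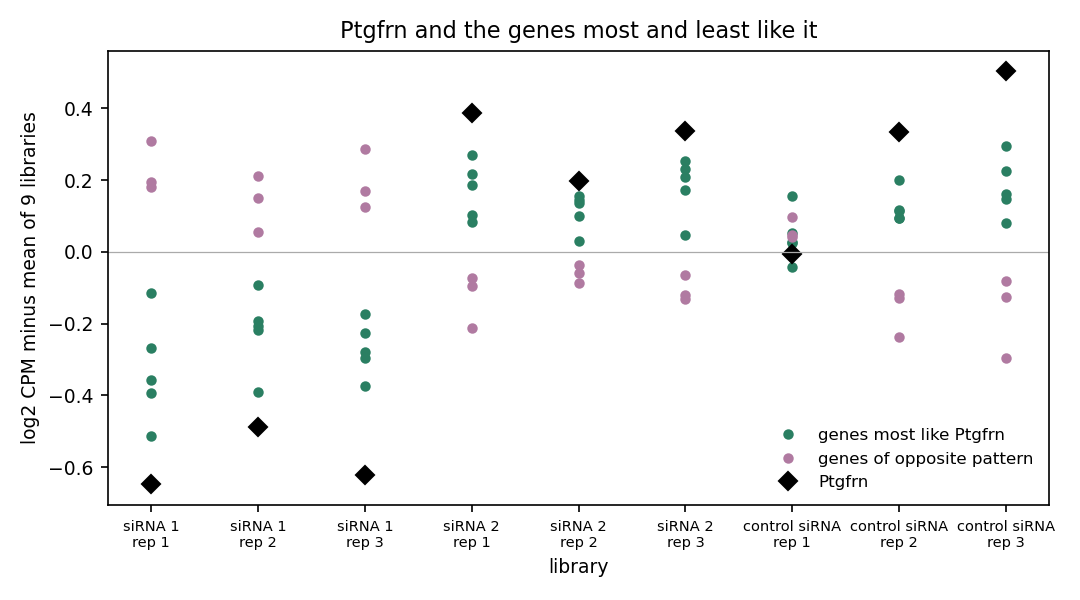
Log2 CPM minus the mean of 9 libraries (y axis) for Ptgfrn (diamonds) and for the 5 genes most like it and 3 genes of the opposite pattern (points), by library (x axis). Ptgfrn lies between -0.65 and -0.49 in the siRNA 1 libraries and at -0.00 in the first control library.

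Libraries differed in how counts depended on gene length, and Ptgfrn is long. Its length implied by the counts and RPKM was 6364 bases, against 1324 for Cd9 and 2244 for Cd151. Log2 CPM was taken as the deviation from each gene's mean over all libraries. The slope of this deviation per doubling of gene length was fitted over 11611 genes. It was -0.0728, 0.0832 and -0.0341 with siRNA 1, 0.0598, 0.0261 and 0.0933 with siRNA 2 and -0.156, -0.0143 and 0.0147 with control siRNA. These slopes are relative to the other libraries and do not give each library's own dependence on length. The first control library had the steepest slope, and in it Ptgfrn was lowest and Cd63, Cd81, Cd9, Cd151 and Cd82 were highest among the controls.

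Genes of like length to Ptgfrn (2413 genes of 5091 to 7953 bases) had median deviations from the 9-library mean of -0.05, 0.08 and -0.02 with siRNA 1, 0.05, 0.03 and 0.08 with siRNA 2 and -0.14, -0.01 and 0.02 with control siRNA. Relative to them, Ptgfrn stood at -0.59, -0.56 and -0.60 with siRNA 1, 0.34, 0.17 and 0.25 with siRNA 2 and 0.14, 0.34 and 0.48 with control siRNA. The siRNA 1 libraries were below all others on this scale too. With the length trend removed, the log2 fold change of Ptgfrn was -0.91 with siRNA 1 and -0.07 with siRNA 2. Without the first control library it was -1.01 with siRNA 1, and without the third -0.76. These were the lowest and highest of the 9 leave-one-out fits. For Cd63, removing the length trend gave -0.07 with siRNA 1 and -0.08 with siRNA 2, beside -0.12 and -0.21 in the main fit.

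**Figure D5:**
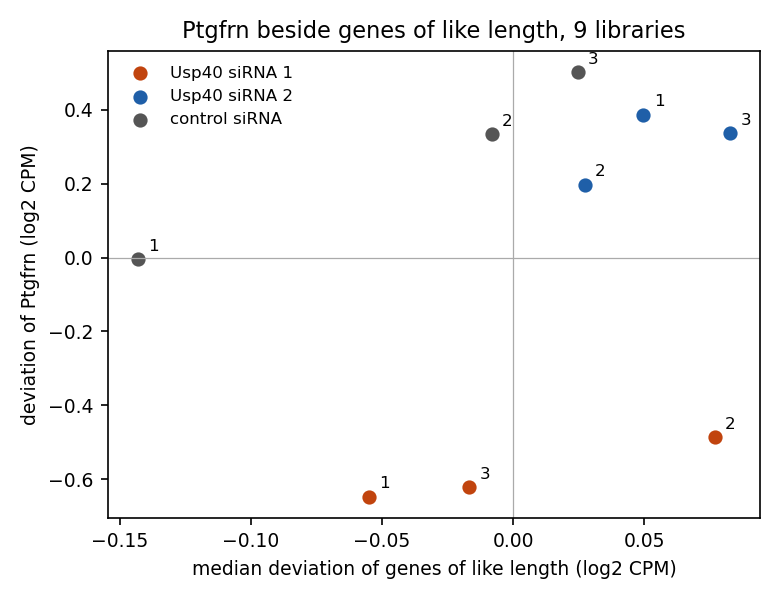
Deviation of Ptgfrn from its 9-library mean (y axis, log2 CPM) against the median deviation of 2413 genes of like length (x axis, log2 CPM), one point per library numbered by replicate. The siRNA 1 points lie lowest on the y axis, and control library 1 lies leftmost at -0.14.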

How the data were processed

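Polyadenylated RNA was used for strand-specific paired-end libraries, per the labels, with no statement on strand in the gene counting. Adapter and quality trimming used CLC Genomics Workbench 23.02, per the labels' protocols, and the genome build was GRCm39; the submitters' processing notes also name DESeq2, with no role. The deposited gene table gives raw read counts, TPM, RPKM and the authors' scaled CPM signal per library. The deposited comparison tables also give log2 fold changes, p-values and signed fold and maximum group mean scores made by the authors, which are not used here. All per-sample columns were mapped to samples (0 left unmapped). The members and lists were chosen with earlier results of these data known.

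Counts were fitted with edgeR 4.0.16 in R 4.3.3 (TMM, filterByExpr, robust quasi-likelihood, group only, all 9 libraries sharing 1 estimate of the spread), which kept 11800 genes and removed 13855. p-values were adjusted by Benjamini-Hochberg over the genes tested and called under 0.05. The biological coefficient of variation was 8.56%. Alternatives used RLE factors, no low-count filter, DESeq2 1.42.0, limma 3.58.1 voom, only the 6 libraries compared, a replicate block, a length trend removed and each library left out. Log2 CPM for likeness used a prior count of 2. TPM levels are the authors', with no further scaling. Intervals are 95% from the fitted SE with 6 residual degrees of freedom and cover the spread between libraries only. Named genes were the 7 members, Usp40, up to 6 called genes with the largest change per list and contrast, and the 5 most and 3 least like Ptgfrn; any other is said to be chosen after its values were seen, and the markers called with siRNA 2 follow in the closing section. The fit was tested on simulated data for siRNA 1 against control siRNA. It called 59.2% of 98 genes changed by 0.5 on the log2 scale and 89% of 100 genes changed by 1. Of 154 calls, 7 were false. Nherf1, Nherf2 and Kirrel1 were found under older symbols. Opposite-strand overlaps make counts uncertain for Ptger4, Tspan31, Tspan4 and Sdcbp, and Usp40 overlaps Dgkd by 62 bases. Some listed genes are not reported here.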

Additional observations from a re-analysis of the deposited data

Results flagged for a closer look

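For 12 genes of the family and function lists and 4 cell type markers the siRNA 1 and siRNA 2 libraries differed from each other in the direct comparison, in edgeR's quasi-likelihood test with Benjamini-Hochberg adjustment. Values are log2 differences, siRNA 1 minus siRNA 2, with 6.74% of all genes called in that comparison. Among the partners of tetraspanins, Itgav stood at 0.96 (adjusted p = 0.000147), Itgb1 at -0.40 (adjusted p = 0.0022), Mmp14 at -0.42 (adjusted p = 0.0458) and Cldn1 at -0.35 (adjusted p = 0.0223). Among the actin linkers, Ezr stood at 0.42 (adjusted p = 0.00627) and Msn at 0.38 (adjusted p = 0.00795). Among the other tetraspanins, named after their values were seen, Tspan14 stood at -0.34 (adjusted p = 0.0201), Tspan18 at -0.54 (adjusted p = 0.0161) and Rom1 at 0.52 (adjusted p = 0.0472). The vesicle gene Rab27b stood at 0.51 (adjusted p = 0.0333). The prostaglandin genes Ptgs2, encoding cyclooxygenase-2, and Ptger4, the EP4 receptor, also named after their values were seen, stood at 0.92 (adjusted p = 0.00498) and 0.78 (adjusted p = 0.0141). Among the cell type markers, the immune marker Ptprc stood at 1.68 (adjusted p = 0.000895), with 2.98 ± 0.147 CPM with siRNA 1, 0.91 ± 0.193 CPM with siRNA 2 and 2.16 ± 0.225 CPM with control siRNA (SD, n = 3 each). The mesangial markers Acta2, named after its values were seen, and Pdgfrb stood at 0.63 (adjusted p = 0.0187) and -0.40 (adjusted p = 0.0298), and the podocyte marker Cd2ap at 0.37 (adjusted p = 0.0289). The part of these markers in the difference of Ptgfrn between the siRNAs was not tested.

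The differences for Itgav, Itgb1, Ptgs2 and Ptprc kept their call in all 9 leave-one-out fits. Ezr and Ptger4 lost theirs without siRNA 2 replicate 3 (adjusted p 0.0509 and 0.0742) and Msn without siRNA 2 replicate 2 (0.0551). The others lost theirs in 3 to 7 of the 9 fits, with adjusted p-values of 0.0535 to 0.114 for Tspan14, 0.0595 to 0.0832 for Tspan18, 0.057 to 0.162 for Rom1, 0.0526 to 0.157 for Mmp14, 0.0553 to 0.1 for Cldn1, 0.0968 to 0.135 for Rab27b, 0.0726 to 0.0907 for Acta2, 0.109 to 0.136 for Pdgfrb and 0.0709 to 0.133 for Cd2ap. Rom1 also lost its call under 5 other settings (0.0526 to 0.112). Ptgs2 averaged 12.7 ± 2.92 CPM with siRNA 1, 6.7 ± 0.641 CPM with siRNA 2 and 9.19 ± 0.825 CPM with control siRNA (SD, n = 3 each).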

How the results depend on the processing

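No called result changed direction under any alternative; uncalled changes near 0, such as that of Cd9 with siRNA 1, changed sign in single leave-one-out fits. The number of genes called with siRNA 1 was 195 and became 366 with the length trend removed and 37 with only the 6 libraries compared. Between the siRNAs it was 795 and became 1220 and 1284 under these 2 settings. The other tetraspanins called with siRNA 2 numbered 1 and became 3 with the length trend removed and 0 with only the 6 libraries. Leaving out 1 library gave 36 (without siRNA 1 replicate 3) to 234 calls with siRNA 1, 636 (without siRNA 2 replicate 3) to 2608 with siRNA 2 and 361 (without siRNA 2 replicate 3) to 1335 (without control replicate 1) between the siRNAs, and 0 to 1 other tetraspanins with siRNA 2 and 0 to 5 between the siRNAs; the cause was not tested. DESeq2 called 267, 1987 and 881 genes in the 3 comparisons. Same-numbered libraries did not deviate together in every pair (correlations of -0.14 to 0.43). With 3 libraries a group, these correlations cannot show whether the numbers pair the samples. The fit with the replicate block called 226, 2295 and 927 genes, where the fit without it called 195, 1913 and 795. The block fit gave Ptgfrn -0.87, 0.03 and -0.90, and ended the calls of Tsg101 with siRNA 2 and Rom1 between the siRNAs. With 3 libraries a group, the 95% intervals of Igsf8 and Cd9 against control reached 0.38 on the log2 scale. The interval of Cd63 reached -0.49 with siRNA 2 and -0.40 with siRNA 1. Differences within these intervals are not excluded by the data.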

Other observations

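Markers of podocytes and other cell types were called in part with siRNA 2 and 0 were called with siRNA 1 in edgeR (1 podocyte, 1 mesangial and 2 immune markers were higher and none lower at an unadjusted p under 0.05). With siRNA 2, Pdgfrb (log2 fold change 0.44, adjusted p = 0.0131) was called higher, and Cd2ap (-0.41, adjusted p = 0.0125), Aqp1 (-0.31, adjusted p = 0.0268), Ptprc (-1.21, adjusted p = 0.00701) and Csf1r (-0.34, adjusted p = 0.0262) lower, beside Cldn1 above. The call of Ptprc held in all 9 leave-one-out fits; those of Cd2ap, Pdgfrb, Aqp1 and Csf1r ended in 2 to 4 of them (adjusted p 0.0514 to 0.125). Their part in the changes of the 7 genes was not tested. Endothelial markers summed to 5.05 to 6.04 TPM with siRNA 1, 5.90 to 7.29 TPM with siRNA 2 and 3.06 to 5.63 TPM with control siRNA, with Emcn at 0, and parietal and tubular markers summed to 656 to 739.7 TPM with siRNA 1, 675 to 718 TPM with siRNA 2 and 658 to 763 TPM with control siRNA. Immune markers summed to 92.4 to 94.6 TPM with siRNA 1, 86.95 to 92.4 TPM with siRNA 2 and 81.6 to 95.4 TPM with control siRNA. The immune genes Adgre1 and Cd3e had no count in any library.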
